A study of Mus musculus with 28 samples.

Results

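The libraries described here came from B16OVA mouse melanoma cells (called B16) with the genotype Ctrl, and set H3K9me3 against H3K9Ac in the same line. They were selected by their sample titles and numbered 6 of the 24 immunoprecipitation libraries of the series, 3 for H3K9me3 and 3 for H3K9Ac. The cells had been transduced with an empty pCRISPR-v2-puro construct and were kept in puromycin, and both marks share this. Per the labels, an H3K9me3 preparation used 4 times as many cells as an H3K9Ac preparation, so the amount of input and the mark cannot be told apart. Chromatin was digested with micrococcal nuclease and sonicated briefly, and the antibodies were from Diagenode for H3K9me3 and from Cell Signaling for H3K9Ac. The libraries set beside these in 1 paragraph came from MC38 colon adenocarcinoma cells with the same empty construct, and from B16 cells with a construct carrying a guide against Setdb1. The series was designed to read the marks at loci where exons are joined to transposable elements.

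Histone H3 can be trimethylated or acetylated at the same lysine, and a single histone tail cannot carry both groups on that residue at once. Trimethylation (H3K9me3) is laid down by enzymes such as SETDB1 and the SUV39H pair, is bound by HP1 proteins, and marks silenced repeats and clusters of tandemly duplicated genes, zinc finger genes among them. Acetylation (H3K9Ac) sits at the starts of active genes and at enhancers, and many active promoters in mammals are rich in CG dinucleotides.

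The deposited unit was the island, a stretch of 200 bp windows that the peak caller SICER found enriched for reads, with the number of reads in it. The H3K9me3 libraries had 22735412, 15198930 and 16586740 reads in islands, and the H3K9Ac libraries had 52991726, 46392459 and 58867309. Every H3K9Ac library thus had more island reads than any H3K9me3 library. These totals count reads inside islands only, and the total reads of the libraries were not used here. A place without an island has no entry, so 0 below means that no island was called. Whether the 3 replicates of a mark were grown as separate cultures is not given in the labels, so a p-value here speaks of the spread among libraries, which may be technical. With 3 libraries against 3 the exact two-sided permutation test of means cannot give a p below 0.1.

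The promoters of 6 genes are shown first because the base composition of gene starts went with the mark carried there. Zfp981, a zinc finger gene, and Chil3, a chitinase-like gene, carried islands of H3K9me3 only. Cdkn2c and Cdkn1b, which code for inhibitors of cyclin-dependent kinases, carried H3K9Ac only. Kbtbd8, an adaptor of a ubiquitin ligase, and Zfp386, another zinc finger gene, carried both marks. Each sequence is the RefSeq promoter on GRCm38.p6, the assembly of mm10, from 250 bases before to 50 bases after a transcript start, read 5′ to 3′ on the gene's own strand. The start used was the outermost one listed for the gene, which lies within 10 bp of the outer end of the gene for 5 of these, and for Zfp981 lies 12.9 kb inside it. Capitals mark the dinucleotide CG.
Zfp981, chr4:146514670-146514969, plus strand: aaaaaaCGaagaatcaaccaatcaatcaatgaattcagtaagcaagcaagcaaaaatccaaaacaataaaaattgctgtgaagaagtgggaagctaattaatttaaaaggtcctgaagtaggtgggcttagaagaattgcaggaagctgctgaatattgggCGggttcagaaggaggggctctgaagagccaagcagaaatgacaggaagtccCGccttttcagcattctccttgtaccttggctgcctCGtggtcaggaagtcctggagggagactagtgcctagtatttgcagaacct
Chil3, chr3:106167515-106167814, minus strand: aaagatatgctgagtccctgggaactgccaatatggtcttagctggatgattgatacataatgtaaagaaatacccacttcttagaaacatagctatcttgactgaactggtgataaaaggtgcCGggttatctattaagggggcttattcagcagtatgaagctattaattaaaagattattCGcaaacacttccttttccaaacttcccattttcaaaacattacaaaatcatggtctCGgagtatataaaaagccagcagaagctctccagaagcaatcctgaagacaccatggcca
Cdkn2c, chr4:109666707-109667006, minus strand: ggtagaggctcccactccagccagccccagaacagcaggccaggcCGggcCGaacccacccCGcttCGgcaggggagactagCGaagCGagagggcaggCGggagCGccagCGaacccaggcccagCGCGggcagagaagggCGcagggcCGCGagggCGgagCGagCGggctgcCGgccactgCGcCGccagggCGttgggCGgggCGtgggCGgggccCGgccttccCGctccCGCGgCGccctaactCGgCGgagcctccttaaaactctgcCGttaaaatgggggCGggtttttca
Cdkn1b, chr6:134920151-134920450, plus strand: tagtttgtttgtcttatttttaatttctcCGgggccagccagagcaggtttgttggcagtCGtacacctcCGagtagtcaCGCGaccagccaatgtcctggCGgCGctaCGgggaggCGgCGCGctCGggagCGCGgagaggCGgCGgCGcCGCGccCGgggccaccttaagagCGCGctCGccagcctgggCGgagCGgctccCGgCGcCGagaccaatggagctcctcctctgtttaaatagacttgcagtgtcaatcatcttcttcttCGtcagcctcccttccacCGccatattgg
Kbtbd8, chr6:95117630-95117929, plus strand: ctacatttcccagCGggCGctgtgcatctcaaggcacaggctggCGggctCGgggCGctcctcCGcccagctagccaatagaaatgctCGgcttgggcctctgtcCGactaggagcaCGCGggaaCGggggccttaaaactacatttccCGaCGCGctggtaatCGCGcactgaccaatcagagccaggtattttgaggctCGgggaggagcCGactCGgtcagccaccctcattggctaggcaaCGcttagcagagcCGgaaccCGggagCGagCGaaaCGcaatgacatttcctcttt
Zfp386, chr12:116047474-116047773, plus strand: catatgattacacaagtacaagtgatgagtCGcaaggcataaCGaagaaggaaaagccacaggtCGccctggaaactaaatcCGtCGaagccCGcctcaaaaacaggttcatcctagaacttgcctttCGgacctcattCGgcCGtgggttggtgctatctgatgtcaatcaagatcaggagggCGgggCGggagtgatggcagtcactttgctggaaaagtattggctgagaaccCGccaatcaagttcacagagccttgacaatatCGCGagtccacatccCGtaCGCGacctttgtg
The Zfp981 and Chil3 promoters hold 4 and 3 CG, those of Cdkn2c and Cdkn1b hold 33 and 30, and those of Kbtbd8 and Zfp386 hold 25 and 17. The start used for Zfp981, inside the gene, and the start of Chil3 lay under an H3K9me3 island in all 3 libraries and under no H3K9Ac island. The starts of the other 4 genes, those with both marks included, lay under an H3K9Ac island in all 3 libraries and under no H3K9me3 island. The letters CG read the same on both strands. Of the 16782 promoters matched to protein-coding genes with a curated transcript, 4.77% held no CG, so its presence alone is common.

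Islands of the 2 marks differed in the spread of their lengths rather than in the typical length. Median island length was 3200, 3600 and 4600 bp in the H3K9me3 libraries, against 2800, 3400 and 3200 bp in the H3K9Ac libraries. These ranges overlapped, and the means of 3800 ± 721 bp for H3K9me3 and 3133 ± 306 bp for H3K9Ac (SD, n = 3 each) differed by 667 bp (exact permutation p = 0.3). H3K9Ac had both more short and more long islands. Islands of 1 kb or less made up 3.11, 1.54 and 0.581% of H3K9me3 islands and 13.1, 6.39 and 10.7% of H3K9Ac islands, with no overlap (exact permutation p = 0.1). Islands of 10 kb or more held 19.6, 23.7 and 28.5% of the H3K9me3 bases and 39.3, 44.0 and 41.3% of the H3K9Ac bases, again with no overlap (exact permutation p = 0.1). Weighting each island by its length turned the direction of the median. The length-weighted median was 5667 ± 702 bp for H3K9me3 and 7800 ± 600 bp for H3K9Ac, with p = 0.1 in the exact permutation test.

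**Figure D1:**
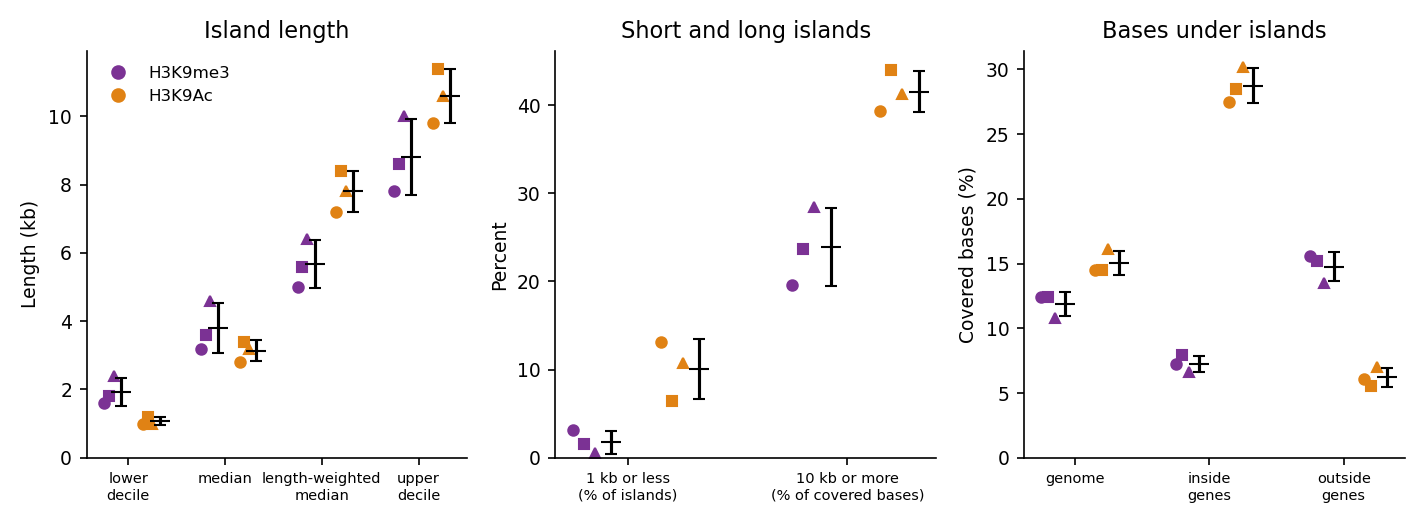
Island lengths in kb (left), the shares of short and long islands in percent (middle) and the covered share of the genome, of gene bases and of bases outside genes in percent (right). Each point is 1 of the 3 libraries of a mark (circle, square and triangle for replicates 1, 2 and 3), and the black line with its bar is the mean ± SD. Median lengths overlap between the marks, while the points for gene bases and for bases outside genes stand apart in opposite directions.

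The longest islands lay over different kinds of genes. The longest islands of H3K9me3 reached 144, 104 and 154 kb in its 3 libraries, and those of H3K9Ac reached 129, 151 and 129 kb. In H3K9me3 replicates 1 and 3 an island of 144 and 145 kb ran over Chia1, Chil3 and Chil4, genes of chitinases and chitinase-like proteins (chr3:106122401-106266400 in replicate 1). The 154 kb island of H3K9me3 replicate 3, chr6:95258201-95411800, touched no protein-coding gene. Nor did an island of 150 kb in H3K9Ac replicate 2, chr6:31053001-31202800. Islands of 151 kb in that H3K9Ac library ran over Yy1, Slc25a29, Slc25a47, Wars and Wdr25, and over Gm42337, Zbtb17, Spen and Fblim1. Among the H3K9Ac islands, 129 kb in replicates 1 and 3 ran over Mob1a, Bola3 and Tet3, a dioxygenase that oxidises 5-methylcytosine (chr6:83328401-83457800 in replicate 1). In the same replicates, H3K9Ac islands of 110 and 115 kb ran over Uhrf1, which binds H3K9me3 and hemimethylated DNA, and Kdm4b, a demethylase of H3K9.

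H3K9me3 lay mostly outside protein-coding genes and H3K9Ac mostly inside them. Of the bases between gene starts and ends, 7.25, 7.90 and 6.64% were under H3K9me3 islands and 27.5, 28.5 and 30.2% under H3K9Ac islands. Of the bases outside genes, 15.6, 15.2 and 13.5% were under H3K9me3 islands and 6.07, 5.54 and 7.03% under H3K9Ac islands. Neither measure overlapped between the marks, and the 2 differences ran in opposite directions. Protein-coding genes took up 39.1% of the genome, but held 23.9 ± 1.03% of the H3K9me3 island bases and 74.8 ± 1.74% of the H3K9Ac island bases (SD, n = 3 each). The log2 ratio of coverage inside to outside genes was −1.03 ± 0.08 for H3K9me3 and 2.22 ± 0.13 for H3K9Ac, a difference of −3.24 with p = 0.1 in the exact permutation test. Over the genome as a whole, H3K9me3 covered 11.9 ± 0.890% and H3K9Ac 15.0 ± 0.924% of the bases (SD, n = 3 each), also without overlap. Reads per kb of island were 58.3 ± 11.6 for H3K9me3 and 133 ± 10.3 for H3K9Ac, so the thinner coverage by H3K9me3 went with fewer reads per covered kb, whose part in the difference was not tested. With the islands of each library trimmed to equal covered length, from the most read-dense island down, the log2 ratio inside to outside genes still differed by −3.27.

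The marks hardly shared bases. Across the 9 pairs of an H3K9me3 and an H3K9Ac library, the bases shared were 0.00823 to 0.0234 of the bases under either (the Jaccard index). The 3 pairs within H3K9me3 shared 0.417 to 0.447, and the 3 pairs within H3K9Ac shared 0.585 to 0.683. All 3 H3K9me3 libraries together covered 142 Mb, all 3 H3K9Ac libraries 271 Mb, and all 6 libraries 0.637 Mb. That shared length was 0.449% of the H3K9me3 length and 0.235% of the H3K9Ac length. It rested on requiring every library. With 1 library left out it was 0.826 to 1.31 Mb, with 1.31, 0.966 and 1.01 Mb without H3K9me3 replicates 1, 2 and 3, and 1.29 Mb, or 0.907% of the H3K9me3 length, without H3K9Ac replicate 2. Bases under any H3K9me3 library came to 515 Mb, under any H3K9Ac library to 533 Mb, and under both to 35.7 Mb. The 0.637 Mb fell into 881 blocks with a median of 600 bp, and 28.7% of the blocks lay on chromosome 6. The longest block, chr15:63618801-63626600, measured 7800 bp and touched no protein-coding gene. In 61.5% of the genome no library of either mark had an island.

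Gene-dense chromosomes carried more H3K9Ac, while H3K9me3 did not follow gene density. The 5 chromosomes with the most protein-coding genes per Mb were 7, 11, 19, 17 and 2, and the 5 with the fewest were 3, 1, 12, X and 18. On the dense set, 12.1 ± 1.14% of the bases were under H3K9me3 and 20.1 ± 1.36% under H3K9Ac (SD, n = 3 each; exact permutation p = 0.1). On the poor set, H3K9me3 covered 12.4 ± 1.01% and H3K9Ac 11 ± 0.678%, and the libraries of the marks overlapped (exact permutation p = 0.2). The log2 ratio of dense to poor was −0.16, 0.11 and −0.04 in the H3K9me3 libraries and 0.92, 0.81 and 0.89 in the H3K9Ac libraries. These ratios did not overlap, with means of −0.03 ± 0.13 for H3K9me3 and 0.87 ± 0.06 for H3K9Ac and p = 0.1 in the exact permutation test. The H3K9me3 ratio itself depended on the chromosomes chosen. With 3 chromosomes a side it was 0.54, 0.78 and 0.64 in the H3K9me3 libraries, against 1.37, 1.23 and 1.34 in the H3K9Ac libraries.

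Single chromosomes stood far from the mean of either mark. On chromosome 6, 31.9, 29.2 and 29.8% of the bases were under H3K9me3 islands and 18.8, 20.6 and 22.2% under H3K9Ac islands. H3K9me3 was above H3K9Ac in every library on chromosomes 1, 3, 6 and 12, and H3K9Ac was above H3K9me3 in every library on the other 16. Inside genes, H3K9Ac coverage was above H3K9me3 coverage on all 20 chromosomes. The X chromosome had the lowest coverage by both marks, 0.644 ± 0.101% under H3K9me3 and 1.37 ± 0.0658% under H3K9Ac (SD, n = 3 each). On chromosome 14, coverage was 2.21 ± 0.627% by H3K9me3 and 6.73 ± 0.427% by H3K9Ac. Copy number of the chromosomes in this line was not measured by these files, and its part in these levels was not tested. As a description over the 20 chromosomes, gene density and H3K9me3 coverage had r = 0.09 and rho = 0.17, and gene density and H3K9Ac coverage had r = 0.62 and rho = 0.59. Coverage by the 2 marks ran in parallel, with r = 0.69 and rho = 0.75, or r = 0.62 and rho = 0.71 over the 19 autosomes, and the points share libraries, depth and copy number.

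**Figure D2:**
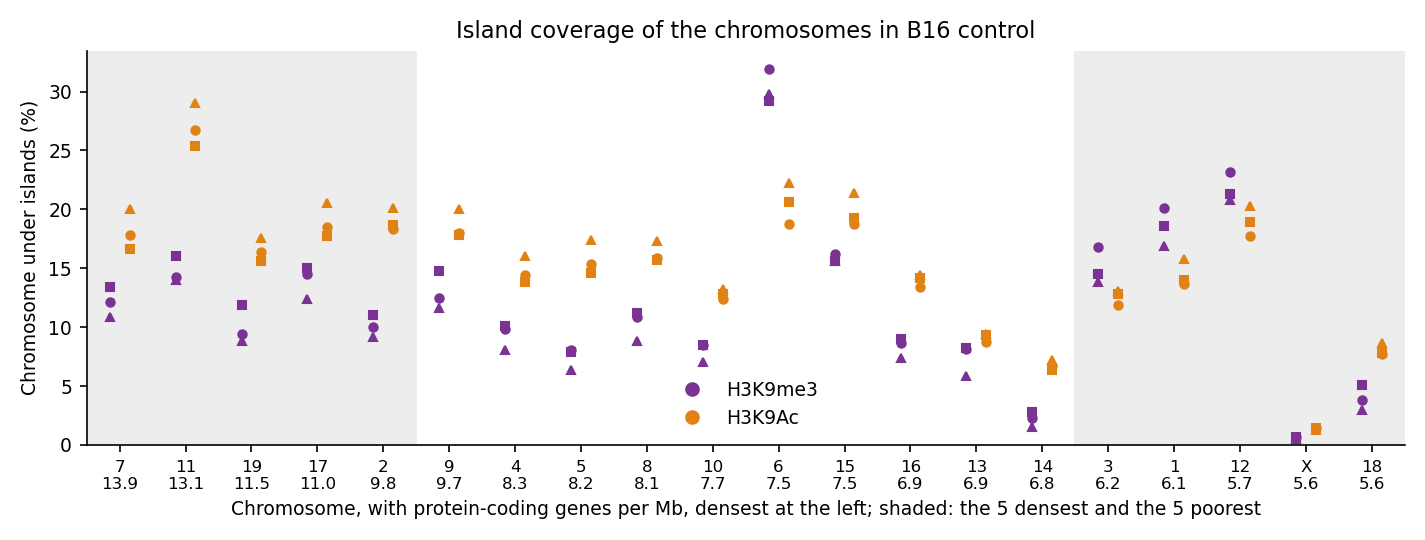
Share of each chromosome under islands, in percent, for the 3 H3K9me3 and 3 H3K9Ac libraries, with chromosomes in order of protein-coding genes per Mb (printed under the chromosome). Shaded bands hold the 5 densest and the 5 poorest chromosomes. H3K9me3 points lie above H3K9Ac points on chromosomes 1, 3, 6 and 12, and both marks are lowest on X.

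A gene was said to carry a mark in a library when at least 200 bp of islands lay between its start and end, or its whole length if shorter. Of 21519 protein-coding genes, 790 (3.67%) carried H3K9me3 in all 3 libraries and H3K9Ac in none, and 10177 (47.3%) carried H3K9Ac in all 3 and H3K9me3 in none. Both marks in all 6 libraries were carried by 2570 genes (11.9%), and neither mark in any library by 3342 genes (15.5%). The other 4640 genes (21.6%) had a mark in some libraries of it only and are called mixed. Single H3K9me3 libraries had islands in 22 to 27.4% of the genes and single H3K9Ac libraries in 69.3 to 74.9%. Near the limit of 200 bp, 59 to 94 genes in an H3K9me3 library held less than that and 55 to 82 held from 200 bp to just under double, while in an H3K9Ac library the counts were 64 to 76 and 91 to 109. Genes that overlap share islands and were counted each.

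Gene length went with the class. Median length was 21 kb for genes with H3K9me3 only, 16.8 kb with H3K9Ac only, 88.9 kb with both and 2.47 kb with neither, against 17.4 kb over all 21519 genes. Genes were put into 5 equal groups by length. In the shortest group, up to 4.36 kb, 3.25% had H3K9me3 only, 30.8% H3K9Ac only, 0.116% both and 47.4% neither. In the longest group, from 58.0 kb up, 3.04% had H3K9me3 only, 29.7% H3K9Ac only, 37.9% both and 2.21% neither. The share with H3K9me3 only thus stayed between 3.00 and 4.95% over the 5 groups, while the share with both marks was higher in each longer group. A longer gene offers more bases for an island, and the part of that in the count was not tested.

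**Figure D3:**
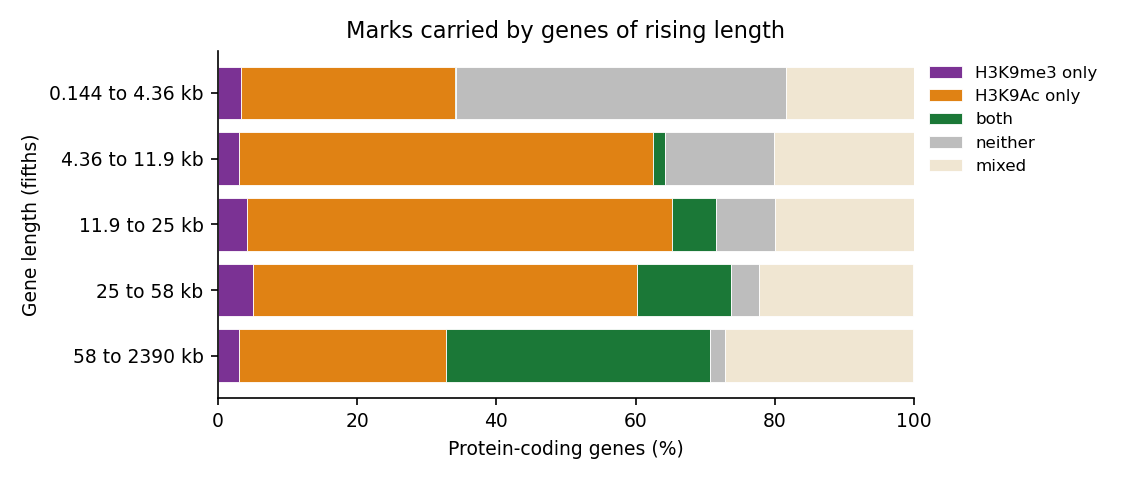
Percent of protein-coding genes in each class of marks, for 5 equal groups of genes by length in kb from the shortest (top) to the longest (bottom). The share with both marks is 0.116% in the top bar and 37.9% in the bottom bar, and the share with neither mark is 47.4% and 2.21%.

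Genes with both marks mostly carried them in different places. Of the 2570, 264 had no base common to the 3 libraries of 1 mark or the other and so could share none. Of the other 2306, 2082 (90.3%) had no base under the islands of all 6 libraries, with a median gap of 5.20 kb between the marks, and 224 had a median of 0.600 kb of such bases. All genes with both marks had a median of 3.80 kb under H3K9me3 and 5.73 kb under H3K9Ac in all 3 libraries of the mark.

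Gene starts were sites of H3K9Ac and were poor in H3K9me3. Of the 16782 starts used, 15051 lay within 1 kb of the outer end of the gene and 1731 farther from it. A start lay under an H3K9me3 island in 3.74, 5.02 and 4.20% of 16782 genes and under an H3K9Ac island in 60.2, 57.0 and 60.2%. At 20 kb before the start, the shares were 13.8, 16.7 and 13.9% for H3K9me3 and 31.7, 28.5 and 32.8% for H3K9Ac. At 20 kb after it, they were 9.92, 11.5 and 9.19% for H3K9me3 and 37.6, 35.6 and 39.1% for H3K9Ac. H3K9me3 was therefore lower at the start than at either distance in all 3 libraries, and H3K9Ac higher in all 3. In all 3 libraries of 1 mark and none of the other, 219 starts (1.30%) were under H3K9me3 and 9125 (54.4%) under H3K9Ac. Over the 15051 starts near the outer end the shares were 1.30% and 54.6%. Only 2 starts were under islands of all 6 libraries, those of Gimap8, an immune-associated GTPase gene, and Lrrc23, a leucine-rich repeat gene.

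**Figure D4:**
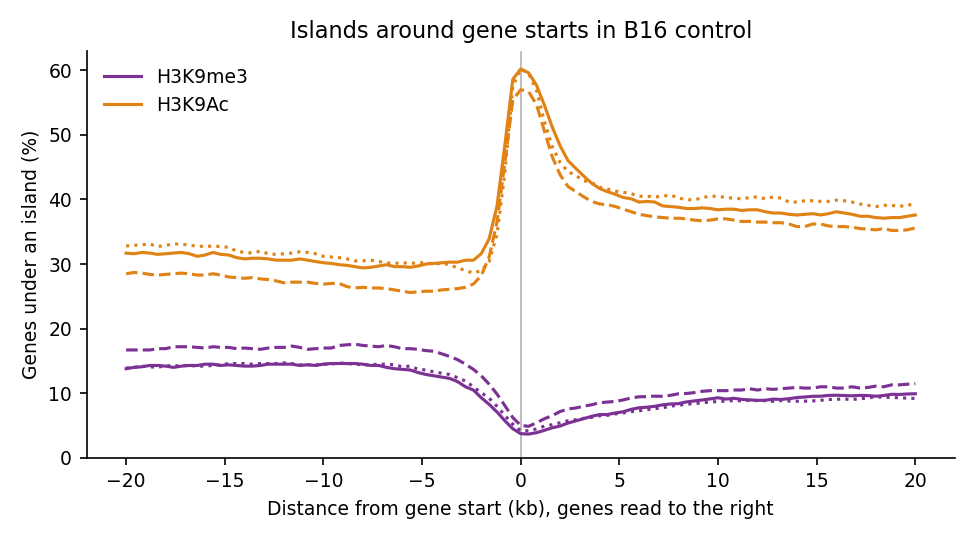
Percent of 16782 protein-coding genes with an island at each distance in kb from the gene start, negative before the start. Lines are single libraries (solid, dashed and dotted for replicates 1, 2 and 3). The H3K9me3 lines dip to 3.74 to 5.02% at the start, where the H3K9Ac lines peak at 57.0 to 60.2%.

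The mark at a start went with the number of CG in the promoter. With 0 to 4 CG (4591 starts), 9.85 to 13.2% of the starts were under H3K9me3 in a library and 15.4 to 20.3% under H3K9Ac. With 10 to 14 CG (1695 starts), 2.06 to 2.24% were under H3K9me3 and 66.0 to 69.1% under H3K9Ac. With 30 or more CG (2593 starts), 0.0771 to 0.193% were under H3K9me3 and 82.8 to 86.0% under H3K9Ac. The H3K9me3 share fell with each step up in CG, and the H3K9Ac share rose with each step up to 20 to 29 CG, where it was 84.9 to 87.0%. Of the promoters printed above, those of Zfp981 and Chil3 fall in the lowest of these groups and those of Cdkn2c and Cdkn1b in the highest, while Kbtbd8 and Zfp386 lie between. By gene class the median was 3 CG with H3K9me3 only, 21 with H3K9Ac only, 14 with both and 2 with neither, against 14 over all 16782 promoters. At the starts of genes with both marks, H3K9Ac was the more common mark. Of 2005 such starts, 1.85% were under H3K9me3 in all 3 libraries and 49.4% under H3K9Ac in all 3.

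Genes of 1 class lay side by side to different degrees. Of the 790 genes with H3K9me3 only, 20.6% lay in runs of 3 or more neighbouring protein-coding genes of that class, and of the 10177 genes with H3K9Ac only, 71.9%. Since the second class is far larger, such runs are more common for it, and the shares were not tested against each other. The longest run of H3K9me3 only had 10 genes from Gm9257 to Gm29758 (chr12:19606598-20462084), all with Gm symbols. Another had 8 genes from Gm19428 to 2410141K09Rik on chromosome 13. The runs of H3K9me3 only named next were tandem families, picked after their values were seen. A run of 9 genes from Cyp2c65 to Cyp2c69 (chr19:39061006-39886769) holds cytochrome P450 genes of the Cyp2c family, which metabolise drugs and fatty acids in liver. The run of 7 from Zfp980 to Rex2 (chr4:145670697-147060799) holds zinc finger genes, Zfp981 and Zfp992 among them. Another 7 ran from Vmn1r50 to BC048671 with vomeronasal receptor genes, and 5 ran from F13b to Cfhr2, with genes related to complement factor H. The longest H3K9Ac only run had 34 genes from Pan2 to Itga7 (chr10:128303333-128958286) and included Pmel, a melanosome gene, and Cdk2. Members of tandem families can be alike in sequence, so reads may be shared or lost among them, which was not tested. The longest run of genes with neither mark had 73 genes from Vmn1r91 to Vmn1r157.

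The 8 genes named with H3K9me3 only included zinc finger, chitinase-like and receptor genes. Levels below are RPKM, the island reads per kb of gene per 1000000 island reads of the library. Zfp992 had 6.25, 5.59 and 5.84 RPKM in the H3K9me3 libraries and 0 in all 3 H3K9Ac libraries. Zfp981 had 6.51, 4.84 and 5.16 RPKM in the H3K9me3 libraries, against 0 in the H3K9Ac libraries. Chil3 had 4.72, 4.35 and 5.11 RPKM in the H3K9me3 libraries, and was under islands over 100% of its length, against 0 in the H3K9Ac libraries. All 8 genes were picked for high H3K9me3 RPKM within a class that admits under 200 bp of H3K9Ac islands in any library. Their levels and 0 values are thus no separate finding. The next, with means over the H3K9me3 libraries between 4.00 and 4.56 RPKM, were Chil4, Olfr212 (an olfactory receptor), Klrb1a (a lectin-like receptor of natural killer cells), Ptchd3 (patched domain containing) and Gimap4 (an immune-associated GTPase). Klrb1a had an H3K9Ac island end over 0.978% of its length in replicate 1, below the 200 bp limit, and the others had none.

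The 8 genes named with H3K9Ac only included a pair of cell cycle inhibitors and several transcription factors. They were picked for high H3K9Ac RPKM within a class that admits under 200 bp of H3K9me3 islands in any library. Neither their levels nor their 0 values are a separate finding. Cdkn2c had 0 in all 3 H3K9me3 libraries and 8.58, 6.91 and 6.51 RPKM in the H3K9Ac libraries. Cdkn1b had 0 in the H3K9me3 libraries, against 7.21, 6.36 and 6.72 RPKM in the H3K9Ac libraries. Both lay under H3K9Ac islands over 100% of their length in every library. Dbi (an acyl-CoA binding protein), Ppp1r15b (a regulator of a phosphatase in the stress response), Irf2bp2 (a transcriptional repressor), Dusp4 (a phosphatase of MAP kinases), Bhlhe41 (a transcriptional repressor of the circadian clock) and Tbx2 (a T-box factor of the melanocyte lineage) had means of 5.44 to 6.54 RPKM in H3K9Ac and 0 in H3K9me3. The housekeeping genes Actb and Gapdh also had 0 in H3K9me3, and means of 4.59 ± 0.163 and 3.40 ± 0.338 RPKM in H3K9Ac (SD, n = 3 each).

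Among genes with both marks, coverage of the gene by each mark was large in few. Zfp386 was under H3K9me3 over 72.4, 69.8 and 87.8% of its length and under H3K9Ac over 35.4, 35.4 and 32.8%. In Kbtbd8 the order was the other way, with 48.6, 50.4 and 38.6% under H3K9me3 and 69.8, 93.3 and 83.2% under H3K9Ac. In these 2 genes the shares under the marks added up to more than the whole length in each same-numbered pair of libraries. Some bases thus lay under both marks in such a pair, while the starts of the promoters printed above lay under H3K9Ac only. Alox5, the 5-lipoxygenase of leukotriene synthesis, had 65.7, 76.3 and 68.0% under H3K9me3 and 27.3, 37.0 and 43.3% under H3K9Ac. Il2rb, a chain of the receptors for interleukins 2 and 15, had 29, 37.7 and 50.7% under H3K9me3 and 68.0, 76.1 and 77.8% under H3K9Ac. Lrrc23 varied most among the 8 genes named here, with 43.5, 51.4 and 87.4% under H3K9me3 and 80.7, 48.9 and 67.5% under H3K9Ac, so the marks overlapped in range. Hapln2 (a matrix link protein), Ecrg4 (a secreted peptide precursor) and Inpp1 (an inositol phosphatase) had means of 33.7 to 75.0% under H3K9me3 and 43.7 to 58.2% under H3K9Ac.

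Each gene's share of island reads was then compared between the marks with edgeR's quasi-likelihood test, over the gene and 2 kb on both sides, with Benjamini-Hochberg adjusted p under 0.05. The calls use the same islands as the classes and are no separate evidence for them. Of 18696 genes tested, 1934 (10.3%) had a higher share in H3K9me3 and 10973 (58.7%) a higher share in H3K9Ac. Most called genes had no island of the other mark at all: 1004 of those higher in H3K9me3 and 9277 of those higher in H3K9Ac. No fold change is given for such genes. In 3213 genes with reads of both marks in all 6 libraries, 889 were higher in H3K9me3, 1167 were higher in H3K9Ac and 1157 were not called. The balance among them rests on the scaling. With TMM scaling the median log2 H3K9me3 over H3K9Ac of these 3213 genes was 0.45, in place of −0.21. In these 3213 genes TMM scaling gave 1169 calls higher in H3K9me3 and 849 higher in H3K9Ac.

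Of the 8 named genes with both marks, Zfp386 and Alox5 had a higher share in H3K9me3 under total-read and TMM scaling alike. Zfp386 had 62.5, 57.8 and 71.8 RPM (reads per 1000000 island reads of the library) in H3K9me3 and 32.7, 30.2 and 24.3 in H3K9Ac, a log2 difference of 1.14 ± 0.17 (SE) with an edgeR adjusted p of 0.00179. Alox5 had 113, 146 and 150 RPM in H3K9me3 and 31.6, 40.6 and 51.9 in H3K9Ac, a log2 difference of 1.72 ± 0.25 (SE) with an edgeR adjusted p of 0.00148. The libraries of the marks did not overlap in either gene. Hapln2 and Ecrg4 were also called higher in H3K9me3, with log2 differences of 1.35 ± 0.41 and 1.09 ± 0.36 (SE) and edgeR adjusted p of 0.0297 and 0.04. Both calls were lost without single libraries. Without H3K9me3 replicate 1 or 3 or H3K9Ac replicate 3, the adjusted p of Hapln2 was 0.0748, 0.0559 or 0.0919, and without H3K9me3 replicate 2 or 3 or H3K9Ac replicate 1 or 2, that of Ecrg4 was 0.0911, 0.0985, 0.102 or 0.0902. From gene start to end alone, that of Ecrg4 was 0.0753. Kbtbd8, Lrrc23, Il2rb and Inpp1 were not called, with log2 differences of −0.23 ± 0.18, −0.20 ± 0.42, −0.45 ± 0.24 and −0.11 ± 0.15 (SE). Inpp1 was called higher in H3K9me3 with TMM scaling, with an edgeR adjusted p of 0.0188. Il2rb was called higher in H3K9Ac without H3K9me3 replicate 3, at an edgeR adjusted p of 0.0394. Kbtbd8 was called higher in H3K9Ac from gene start to end alone, at an edgeR adjusted p of 0.0142.

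As a check of the labelled cell type, all melanocyte markers but Ednrb had an H3K9Ac island in all 3 libraries (17 of 18, 94.4%), whatever H3K9me3 did there, beside 68.1% of all protein-coding genes. Of 18 melanocyte markers, 0 had H3K9me3 only, 10 (55.6%) H3K9Ac only, 3 both, 1 neither and 4 were mixed, beside 47.3% with H3K9Ac only over all genes. Sox10 and Mlana, the lineage's transcription factor and an antigen of its melanosomes, lay under no H3K9me3 island and under H3K9Ac islands over 100% of their length in all 3 libraries, as did Pmel, Tyrp1, Gpnmb and Mc1r. Dct, Slc45a2 and Slc24a5, 3 more pigment genes, had no H3K9me3 island and at least 91.6% of their length under H3K9Ac in each library, while Gpr143, a pigment cell receptor, had 16, 17.5 and 12.3% under H3K9Ac. Tyr, which codes for tyrosinase, was mixed. Its length was under H3K9me3 over 0, 5.24 and 0% and under H3K9Ac over 60.7, 83.1 and 66.8%, so that only 1 library put it outside the H3K9Ac class. Mitf, the master regulator of the lineage, carried both marks, with 2.71, 1.87 and 5.60% of its length under H3K9me3 and 39.9, 78.3 and 34.6% under H3K9Ac. Its share of island reads was higher in H3K9Ac, with a log2 difference of −4.30 ± 0.68 (SE) and an edgeR adjusted p of 0.00223. Trpm1, a cation channel gene, had 7.25, 5.15 and 0.488% under H3K9me3 and 32.3, 35.2 and 26.9% under H3K9Ac, and its log2 difference of −2.36 ± 0.48 (SE) had an edgeR adjusted p of 0.0062, or 0.0768 with TMM scaling. Oca2, a melanosomal transporter, carried both at near-equal shares, with 104, 68.8 and 114 RPM in H3K9me3 and 99.3, 128 and 111 in H3K9Ac (log2 difference −0.24 ± 0.24 SE, edgeR adjusted p 0.405). Rab38 and Rab27a, small GTPases of melanosome transport, were mixed with an H3K9me3 island in 1 library each and had 66.3% or more of their length under H3K9Ac. Kit, a receptor for stem cell factor, was mixed with an H3K9me3 island in replicate 1 only and had 9.32, 6.61 and 9.54% under H3K9Ac, and Ednrb, the endothelin receptor of the lineage, had no island of either mark.

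Markers of other cell types fell into all classes, many of them mixed. H3K9Ac only was carried by 2 of 14 gut epithelium, 6 of 12 fibroblast, 3 of 13 leukocyte and 2 of 7 endothelium markers, and by 9 of 10 housekeeping genes, beside 47.3% of all genes, so fibroblast markers lay near the level of all genes. Mixed were 10 of 14 gut epithelium, 3 of 12 fibroblast, 6 of 13 leukocyte and 4 of 7 endothelium markers, beside 21.6% of all genes. H3K9me3 only was carried by 1 gene of these lists, the macrophage marker Adgre1, at 24, 18.2 and 33.9% of its length. Ptprc, the pan-leukocyte gene, had 48.7, 62.4 and 41.4% of its length under H3K9me3 and 0, 0 and 5.67% under H3K9Ac. Tek, an endothelial receptor, carried both marks, with 27.4, 33.9 and 19.9% under H3K9me3 and 0.736, 0.883 and 0.589% under H3K9Ac. Epcam, an epithelial adhesion gene, had 0, 23.3 and 27.7% under H3K9me3 and 0, 0 and 27.2% under H3K9Ac. Most markers of other cells did carry H3K9Ac when counted as the melanocyte markers were, in all 3 libraries whatever H3K9me3 did there. These were 8 of 14 gut epithelium (57.1%), 8 of 12 fibroblast (66.7%), 8 of 13 leukocyte (61.5%) and 5 of 7 endothelium markers (71.4%). All protein-coding genes stood at 68.1%. Col1a1 was under H3K9Ac over 79.5, 49.0 and 74.8% of its length and Cd79a over 84.9, 100 and 62.0%. Where such islands come from was not tested.

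**Figure D5:**
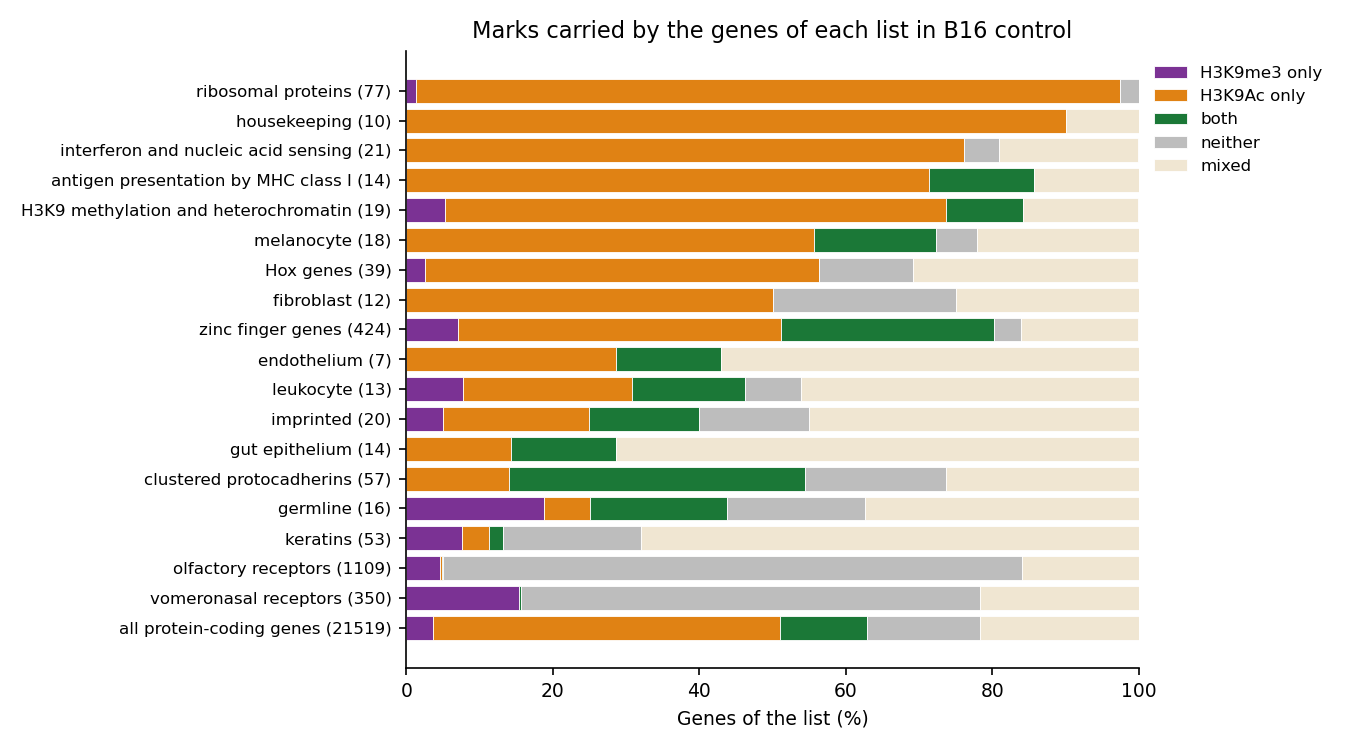
Percent of the genes in each list that fall in each class of marks, with the number of genes found in parentheses and all protein-coding genes in the bottom bar. Lists are in order of the share with H3K9Ac only, from 96.1% of ribosomal protein genes to 0% of vomeronasal receptor genes.

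Genes used in every cell were nearly all of the H3K9Ac class. Of 77 genes of ribosomal proteins, 1 had H3K9me3 only, 74 (96.1%) H3K9Ac only and 2 neither, beside 3.67, 47.3 and 15.5% of all genes. The 1 with H3K9me3 was Rpl39l, a copy used in the male germline, over 6.60, 19.3 and 27.8% of its length. Rpl10l, another germline copy, was among the 2 with neither.

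Genes of the enzymes and readers of H3K9 methylation mostly carried H3K9Ac only. Of 19 genes of this list, 1 had H3K9me3 only, 13 (68.4%) H3K9Ac only, 2 both and 3 were mixed, beside 3.67% with H3K9me3 only, 47.3% with H3K9Ac only and 11.9% with both over all genes. Trim28, the corepressor that brings SETDB1 to zinc finger proteins, was under no H3K9me3 island and under H3K9Ac over 100, 100 and 85.5% of its length. Setdb1, intact in these cells by their labels, was under no H3K9me3 island and under H3K9Ac over 65.6, 85.7 and 72.7%. Ehmt2, Suv39h1 and Suv39h2, 3 more H3K9 methyltransferases, were in the same class. Atf7ip, a partner of SETDB1, carried both marks, with 17.4, 15.9 and 11.9% under H3K9me3 and 52.6, 59.6 and 52.2% under H3K9Ac. Atf7ip2, its relative expressed in germ cells, was the 1 gene with H3K9me3 only, over 26.2, 40.9 and 28.9% of its length.

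Germline genes were spread over the classes, with H3K9me3 over most of the length of some. Of 16, 3 (18.8%) had H3K9me3 only, 1 H3K9Ac only, 3 both, 3 neither and 6 were mixed, beside 3.67% with H3K9me3 only over all genes. Dmc1, the recombinase of meiosis, was under H3K9me3 over 74.6, 90.5 and 90.0% of its length and under H3K9Ac over 0% in all 3 libraries. Sycp1, of the synaptonemal complex, had 58.8, 66.0 and 48.0%, and Mael, of the piRNA pathway, had 50.3, 64.8 and 56.2% under H3K9me3, with no H3K9Ac island in either. Tdrd9, a helicase of the piRNA pathway, carried both, with 48.9, 72.2 and 63.3% under H3K9me3 and 37.4, 26.6 and 57.7% under H3K9Ac. Its share of island reads was higher in H3K9me3, with a log2 difference of 1.52 ± 0.32 (SE) and an edgeR adjusted p of 0.0078. Stk31, a testis kinase gene, was mixed, with 89.1, 91.2 and 91.2% under H3K9me3 and 5.95, 0 and 3.24% under H3K9Ac. Ddx4, Sycp3 and Slc25a31 had neither mark, so the list was not uniform.

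Zinc finger genes carried H3K9me3 together with H3K9Ac more often than alone, as all genes did. Of 424, 30 (7.08%) had H3K9me3 only, 187 (44.1%) H3K9Ac only, 123 (29%) both, 16 (3.77%) neither and 68 were mixed, beside 3.67% with H3K9me3 only, 47.3% with H3K9Ac only, 11.9% with both and 15.5% with neither over all genes. Runs with both marks were Zfp995 to Zfp946 on chromosome 17 with 9 genes and Zfp729b to Gm10037 on chromosome 13 with 8. Clustered protocadherin genes, cell-surface proteins whose variable exons share a common end, had 0 genes with H3K9me3 only, 8 with H3K9Ac only, 23 of 57 (40.4%) with both, 11 with neither and 15 mixed. The alpha and gamma genes each span the same shared exons, so 1 island near the common end counts for many of them. Pcdhgc5, which starts close to that end, had 0% under H3K9me3 and 59.1, 66.3 and 31.4% under H3K9Ac.

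Chemoreceptor genes carried little of either mark, with a part under H3K9me3. Of 1109 olfactory receptor genes, 51 (4.60%) had H3K9me3 only, 3 H3K9Ac only, 1 both, 877 (79.1%) neither and 177 were mixed. Of 350 vomeronasal receptor genes, 54 (15.4%) had H3K9me3 only, 0 H3K9Ac only, 1 both, 219 (62.6%) neither and 76 were mixed. H3K9Ac only was carried by 47.3% of all genes, so these families stood low in it. Vomeronasal receptors stood above the 3.67% of all genes in the class H3K9me3 only, but not in H3K9me3 itself. Whatever H3K9Ac did there, 16.9% of vomeronasal and 4.96% of olfactory receptor genes had H3K9me3 in all 3 libraries, beside 18.2% of all genes. H3K9Ac in all 3 libraries was carried by 0.857% and 0.451% of them, beside 68.1% of all genes. Receptor genes made up 13.3% of the genes with H3K9me3 only and 32.8% of those with neither. Vmn1r54, in the run on chromosome 6, had 3.89, 4.61 and 4.69 RPKM in H3K9me3 and 0 in H3K9Ac. These genes are short and alike in sequence, and reads that fit several copies may have been dropped, which was not tested.

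Most genes of antigen presentation and interferon signalling carried H3K9Ac only, which 47.3% of all genes did. Of 14 genes of MHC class I presentation, 0 had H3K9me3 only, 10 (71.4%) H3K9Ac only, 2 both and 2 were mixed. B2m, the light chain of MHC class I, was under no H3K9me3 island and under H3K9Ac over 100% of its length in all 3 libraries. Nlrc5, the transactivator of these genes, carried both marks, with 19.2, 24.1 and 18.3% under H3K9me3 and 27.5, 22.7 and 38.0% under H3K9Ac, and its share of island reads was not called different (log2 difference −0.02 ± 0.27 SE, edgeR adjusted p 0.941). Of 21 genes of interferon and nucleic acid sensing, 0 had H3K9me3 only, 16 (76.2%) H3K9Ac only, 0 both, 1 neither and 4 were mixed. Cgas and Sting1, the sensor of cytosolic DNA and its adaptor, had no H3K9me3 island, and H3K9Ac over 84.3, 89.0 and 57.5% of Cgas and over 88.4, 92.4 and 88.4% of Sting1. Ifit1, an interferon-induced gene, was mixed, with 0, 41.7 and 39.5% under H3K9me3 and 25.3, 5.61 and 5.61% under H3K9Ac.

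Hox and imprinted genes were split. Of 39 Hox genes, 1 had H3K9me3 only, 21 (53.8%) H3K9Ac only, 0 both, 5 neither and 12 were mixed, beside 3.67% with H3K9me3 only, 47.3% with H3K9Ac only and 15.5% with neither over all genes, near the shares of this list, and 11.9% with both. Hoxd13 was under no H3K9me3 island and under H3K9Ac over 100% of its length in every library. The 1 with H3K9me3 only was Hoxc13, at 62.5, 86.1 and 15.8% of its length. Of 20 imprinted genes, 1 had H3K9me3 only, 4 H3K9Ac only, 3 both, 3 neither and 9 were mixed, and over all genes 11.9% had both and 21.6% were mixed. Kcnq1ot1, a long noncoding RNA of an imprinted domain, had 50.1, 60.0 and 49.4% of its length under H3K9me3 and 15.8, 32.1 and 34.7% under H3K9Ac. Gnas had 11.9, 7.37 and 7.37% under H3K9me3 and 46.1, 44.4 and 58.3% under H3K9Ac, with a higher share of island reads in H3K9Ac (log2 difference −2.34 ± 0.31 SE, edgeR adjusted p 0.000976). These files do not separate the parental copies. Keratin genes were mostly mixed, with 4 of 53 in the class H3K9me3 only, 2 in H3K9Ac only, 1 in both and 36 (67.9%) mixed.

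The contrast between the marks was not shown to be particular to B16 control. The difference of H3K9me3 minus H3K9Ac, taken between same-numbered libraries, was set against that in MC38 control and in B16 Setdb1 KO for 4 measures. The 8 exact permutation tests gave p of 0.2 to 1, or 0.8 to 1 after Benjamini-Hochberg adjustment. Whether same-numbered libraries belong together is not known. These p and the overlaps rest on that pairing, while the mean differences do not. For gene bases under islands, the difference averaged −21.5 percentage points in B16 control, −22.7 in MC38 control and −22.2 in B16 Setdb1 KO. For the log2 ratio of dense to poor chromosomes it was −0.90 in B16 control, −1.13 in MC38 control and −0.93 in B16 Setdb1 KO. All 8 comparisons overlapped, and 3 libraries a group cannot show that the groups are alike.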

How the data were processed

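Chromatin immunoprecipitation libraries for H3K9me3 and H3K9Ac were compared in B16 control cells, 3 numbered replicates per mark. Per the submitters' processing notes, the tools were cutadapt (version not given), Bowtie2 2.1.0, SAMtools 0.1.8, SICER 1.1 and deepTools 3.1.1, and the build was mm10. The deposited values are counts: an entry is an island of a single library and the number of that library's reads in it, unscaled between libraries, and the deposited names carry a SICER window of 200 bp, a gap of 600 bp and a false discovery rate of 0.05. The input used as background and the read filters are not given in the sources used here, and the 4 input samples were not analysed here. Joining of windows across gaps sets island length. Total reads per library were not used here, so sequencing depth is unknown.

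Coverage was counted in 200 bp bins on chromosomes 1 to 19 and X. Genes came from a RefSeq table of GRCm38.p6, the assembly of mm10, by symbol. Entries starting before 2.99 Mb (340) carried scaffold coordinates and were dropped, and 21519 protein-coding genes remained. The last island or gene end stood for the chromosome length. Promoters were matched for 82.2% of 20417 protein-coding genes with a curated transcript outside chromosome 18 (16782 genes, at least 80.1% in each class). Of the fixed lists, Fam208a, Mb21d1, Tmem173, Mx1 and Mx2 were not found under these symbols as protein-coding genes.

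Means over libraries were set against each other by exact permutation, two-sided. Island reads were apportioned by overlap to the gene and 2 kb on both sides and rounded. They were tested with edgeR 4.0.16 (quasi-likelihood, offsets from total island reads, mean of at least 10 reads, Benjamini-Hochberg adjustment). This step was also run on simulated data with a far smaller dispersion (spread between libraries) than the common value of 1.2 fitted here. That run does not show how the calls behave in these data. Alternatives were TMM scaling, DESeq2 1.42.0, no count filter, gene start to end, the replicate number as a block, each replicate left out, islands at or above the library's median reads per kb, matched covered length, other overlap limits, other gene sets and other chromosome sets. R 4.3.3, Python 3.11.15, numpy 2.4.6, pandas 2.3.3 and scipy 1.17.1 were used.

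In each of the 3 marked classes the 8 named genes were those of at least 5 kb with established symbols, at most 2 per family, that had the highest RPKM in the lowest of the mark's libraries (for both marks, the largest product of the lowest coverages). Every list also gave up to 4 genes by level, and all melanocyte markers, Setdb1, Actb and Gapdh were included. Other genes named in the text were chosen after their values were seen. The members and lists were chosen with earlier results of these data known.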

Additional observations from a re-analysis of the deposited data

Results flagged for a closer look

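Islands on sequences outside the compared chromosomes were looked at because no comparison used them. The Y chromosome had 2319, 1184 and 1268 reads in islands in the H3K9me3 libraries and 1267, 2295 and 846 in the H3K9Ac libraries, all above the limit of 3 reads that a count of 0 allows. The marks overlapped in range, and the Y islands held 0.0102, 0.00779 and 0.00764% of the H3K9me3 island reads and 0.00239, 0.00495 and 0.00144% of the H3K9Ac island reads. They covered 9.60 to 11.6 kb in the H3K9me3 libraries and 7.20 to 20 kb in the H3K9Ac libraries. Whether these reads stem from Y sequence or from copies elsewhere was not tested. The mitochondrial sequence had islands with 614 reads in H3K9me3 replicate 1 and 652 reads in H3K9me3 replicate 2, and no island in H3K9me3 replicate 3 or in any H3K9Ac library. The source of these reads was not tested. Groups of 3 libraries are too small for a test of single outlying samples, and none was run.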

How the results depend on the processing

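Of 197 entries for main results under an alternative setting, 180 were counted as unchanged. For a difference of means this asked only for the same sign, and for counts and shares for a move within a set limit. Entries with the replicate number as a block repeat the main value for differences of means, so those could not change. The median island length difference turned to −2133 bp with the length-weighted median, since the longest H3K9Ac islands weigh more. The mean shared fraction of bases (Jaccard index) was 0.0137 in the main setting, and 0.00743 with islands at or above the library's median reads per kb, which keeps fewer islands. With that setting 1460 genes carried both marks. Requiring islands over 20% of the gene length left 111 genes with both and 5619 with neither. Counting all gene types gave 2805 genes with H3K9me3 only, 15293 with H3K9Ac only and 14565 with neither, because more genes are counted. The edgeR counts were 2228 higher in H3K9me3 and 10426 in H3K9Ac with TMM scaling, and 2829 and 11833 with DESeq2. For the named genes, 999 of 1130 recomputed results kept their call, 84 lost it (most of them with the replicate block), 46 gained one and 1 turned. Inpp1 turned with TMM scaling, to higher in H3K9me3 with an edgeR adjusted p of 0.0188.

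Leaving out 1 replicate at a time gave differences of H3K9me3 minus H3K9Ac of −19486 to −6085 for island number, 267 to 967 bp for median length, −22.1 to −20.8 percentage points for gene bases, −3.3 to −3.17 for the log2 ratio inside to outside genes and −0.97 to −0.84 for dense to poor chromosomes. Without 1 library, 812 to 989 genes had H3K9me3 only, 10217 to 10796 H3K9Ac only, 2587 to 3097 both and 3384 to 3597 neither, and edgeR called 1808 to 2105 genes higher in H3K9me3 and 10391 to 11559 in H3K9Ac. The length under all libraries of both marks was 0.637 Mb, and 0.826 to 1.31 Mb without 1 library, as fewer libraries have to agree. This, the restriction to starts within 1 kb of the outer end of the gene, and both alternatives for the other groups were chosen after the data were seen. The covered length contrast of B16 control minus MC38 control was −27.4 Mb, 0.860 Mb with islands at or above the median reads per kb, and −41.6 to 0.183 Mb without 1 replicate number. The dense to poor contrast of B16 control minus B16 Setdb1 KO was 0.03 and ranged from −0.07 to 0.12. None of these differences passed a threshold, so the cause was not tested.

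Whether libraries of the 2 marks with the same replicate number belong together is not known. Same-numbered libraries had deviations from the mean of their mark correlated at −0.07, −0.22 and 0.05 over 3213 genes. Differently numbered libraries had −0.23 to 0.25. With 3 libraries per mark these values can neither show nor exclude a pairing. With the replicate number as a block (replicate block), edgeR called 0 genes in either direction at an adjusted p under 0.05, with 1101 genes higher in H3K9me3 and 7549 higher in H3K9Ac at an unadjusted p under 0.05. Exact sign-flip tests over the numbers cannot go below 0.25. Island reads were 15198930 to 22735412 in H3K9me3 libraries and 46392459 to 58867309 in H3K9Ac libraries, and the part of this in the number of islands called was not tested. No island is not absence of the mark.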

Other observations

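Gene types other than protein-coding carried the marks in other proportions. Of 12609 long noncoding RNA genes, 8.23% had H3K9me3 only, 26.9% H3K9Ac only, 8.51% both and 20.4% neither, with a median length of 8.44 kb. Of 9762 pseudogenes, 7.31% had H3K9me3 only, 5.01% H3K9Ac only, 0.512% both and 62.6% neither, with a median length of 0.907 kb. Pseudogenes were thus the type, of the 7 counted, in which H3K9me3 only was more common than H3K9Ac only. Protein-coding genes had 3.67% with H3K9me3 only and 47.3% with H3K9Ac only, at a median length of 17.4 kb, so length differs between the types as well.

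Genes of short RNAs, of median length 0.0720 kb for tRNA and 0.0800 kb for miRNA, had to lie under islands over their whole length to carry a mark. Of 403 tRNA genes, 28 (6.95%) had H3K9me3 only, 205 (50.9%) H3K9Ac only, 2 both and 93 (23.1%) neither. Of 1228 miRNA genes, 10 (0.814%) had H3K9me3 only, 482 (39.3%) H3K9Ac only, 1 both and 464 (37.8%) neither. Of 996 snRNA genes, 78 (7.83%) had H3K9me3 only and 118 (11.8%) H3K9Ac only. Copies in these families are alike in sequence, and what that does to the counts was not tested.

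The classes also differed by chromosome. Over all protein-coding genes, 3.67% had H3K9me3 only, 47.3% H3K9Ac only, 11.9% both and 15.5% neither. On chromosome 6, 100 of 1120 protein-coding genes (8.93%) had H3K9me3 only and 237 (21.2%) both. The share with both was 22.8% on chromosome 1 and 20.6% on chromosome 12, so chromosome 6 was not alone in it. On chromosome X, 2 of 963 (0.208%) had H3K9me3 only, 339 (35.2%) H3K9Ac only, 4 both and 527 (54.7%) neither. On chromosome 14, 10 of 849 (1.18%) had H3K9me3 only and 277 (32.6%) neither. Chromosome 6 also had the highest H3K9me3 coverage and X the lowest, and the number of copies of each was not measured here.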
